A study of Homo sapiens with 6 samples.

Results

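The genes described here set the pace of the G1 phase of the cell cycle: the inhibitors of cyclin-dependent kinases (CDKs) CDKN1A, CDKN1B, CDKN1C and CDKN2C, the D cyclins CCND1, CCND2 and CCND3, their kinases CDK4 and CDK6, and RB1. They were chosen by name, with earlier results of these data known. Every probe set that the platform annotation gives to 1 of the 10 genes was taken. This gave 25 probe sets for 9 genes, out of 54613 probe sets and 19775 genes measured on the array. No probe set in the annotation used here carries the symbol CDKN2C, so that gene was not analysed here.

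The arrays (Affymetrix HG-U133 Plus 2.0) read transcript levels in 1833 cells, a bone-seeking subline of the human breast cancer line MDA-MB-231. One group of 3 arrays is labelled S153E-RKIP: the cells had received a mutant RKIP, a more potent inhibitor of Raf-1, in a lentiviral vector and were kept under puromycin. The other group of 3 arrays is labelled control, and the series design names it a vector control. All cells grew in DMEM with 10% serum. RKIP is the product of PEBP1 and restrains the signal that passes through Raf-1, MEK and ERK. Both groups stem from 1 line, the labels do not say whether the transduced cells were a clone or a pool, and the 3 replicates of each group are called biological with no further detail. The p-values therefore set the group difference only against the spread within groups of these 6 samples, estimated with the help of all genes. Some of that spread may be technical.

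A cell commits to dividing late in G1. D cyclins, whose genes answer to growth factors and to the ERK cascade, bind CDK4 or CDK6, and the complexes phosphorylate the RB1 protein, which then lets go of E2F factors so that they can switch on the genes of DNA replication. The proteins of the Cip/Kip family, p21 (CDKN1A), p27 (CDKN1B) and p57 (CDKN1C), block CDK2 complexes and also help to assemble cyclin D with its kinases, while proteins of the INK4 family bind only CDK4 and CDK6. MDA-MB-231 is known for the loss of CDKN2A.

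The promoters of the pair of genes that passed the test are shown because both inhibitors were called, in opposite directions. The sequences are RefSeq's (GRCh38.p14), read 5′ to 3′ on the + strand, and hold 250 bases before and 50 bases after the start site, at chr6:36678464-36678763 for CDKN1A and chr12:12717118-12717417 for CDKN1B. Capitals mark a GC box (GGGCGG, known as a site of Sp1 factors) or a CCAAT box (CCAAT) on either strand.
CDKN1A: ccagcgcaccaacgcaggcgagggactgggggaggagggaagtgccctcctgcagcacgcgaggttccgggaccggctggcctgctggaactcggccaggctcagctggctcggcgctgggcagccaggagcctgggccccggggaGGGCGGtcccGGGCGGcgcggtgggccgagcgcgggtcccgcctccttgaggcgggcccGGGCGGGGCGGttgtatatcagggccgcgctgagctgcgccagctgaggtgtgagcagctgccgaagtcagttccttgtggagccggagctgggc
CDKN1B: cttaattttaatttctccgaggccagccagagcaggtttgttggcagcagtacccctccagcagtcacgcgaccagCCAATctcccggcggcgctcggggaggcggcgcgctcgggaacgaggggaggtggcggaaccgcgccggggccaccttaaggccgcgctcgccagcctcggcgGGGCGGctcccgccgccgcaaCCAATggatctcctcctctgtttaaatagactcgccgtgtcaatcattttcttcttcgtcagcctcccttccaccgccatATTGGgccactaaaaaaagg
The CDKN1A window held 4 GC boxes, all on the strand shown, the last of which overlaps its neighbour by 1 base. They begin between 104 and 40 bases before the start site. The CDKN1B window held 1 GC box and 3 CCAAT boxes, 2 on the strand shown and 1 on the opposite strand. Of all 35116 promoters of this length, 45% held a GC box and 34.6% a CCAAT box. The letters TATAAA were in neither window and in 11.5% of all promoters. These matches describe letters in the windows and nothing about which factor binds there.

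The label of the introduced gene could not be checked from the arrays. PEBP1 had a level of 11.66 ± 0.064 on the arrays labelled S153E-RKIP and 11.76 ± 0.026 on the control arrays (SD, n = 3 each; limma adjusted p = 0.473). The sources used here do not say whether its probe sets overlap the sequence that was introduced. The source name of the S153E-RKIP samples speaks of shRNA against HMGA2, whose level was 9.77 ± 0.066 on those arrays and 9.79 ± 0.019 on the control arrays (SD, n = 3 each; limma adjusted p = 0.882). Every direction below therefore rests on the label. Array medians ran from 5.60 to 5.67 and no arrays were identical. Across all genes the median difference was 0.010 and its median standard error 0.072, and the number of arrays limits the precision. A principal component analysis of all genes parted the groups along its first component (46.1% of the variance). Its second component (21.6%) set S153E-RKIP replicate 1 apart from the other arrays. All levels are log2 signals after RMA, a method that normalises arrays together, and each difference is the S153E-RKIP mean minus the control mean on that log2 scale. Levels of different members are not set against each other, because probe sets differ in how brightly they bind. Where a level is placed against the median of all genes, the same limit applies.

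Among the 9 genes measured, CDKN1A rose and CDKN1B fell on the arrays labelled S153E-RKIP. CDKN1C had the largest difference of the 9, downward, and missed the threshold on its brightest probe set. The D cyclins, CDK4, CDK6 and RB1 did not pass the test. The test was limma on all genes, each read by its brightest own probe set, and a gene was called at a Benjamini-Hochberg adjusted p under 0.05. Called members were 2 of 9, against 1.9% of all genes, with 1 higher (0.688% of all genes) and 1 lower (1.21%). All 9 members lay above the median level of all genes, so dim genes weigh on these shares but not on the members. When only the 9887 genes above that median were fitted, 523 were called, 3 of them members. An unadjusted p under 0.05 was found for 3 of 9 members, against 15.7% of all genes. The groups did not overlap in 5 of 9 members, against 20.1% of all genes, with 2 higher (9.31% of all genes) and 3 lower (10.8%). The median difference of the 9 genes was -0.082, with 4 above 0 and 5 below. The members were chosen with earlier results known, so these shares are given as a description.

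**Figure D1:**
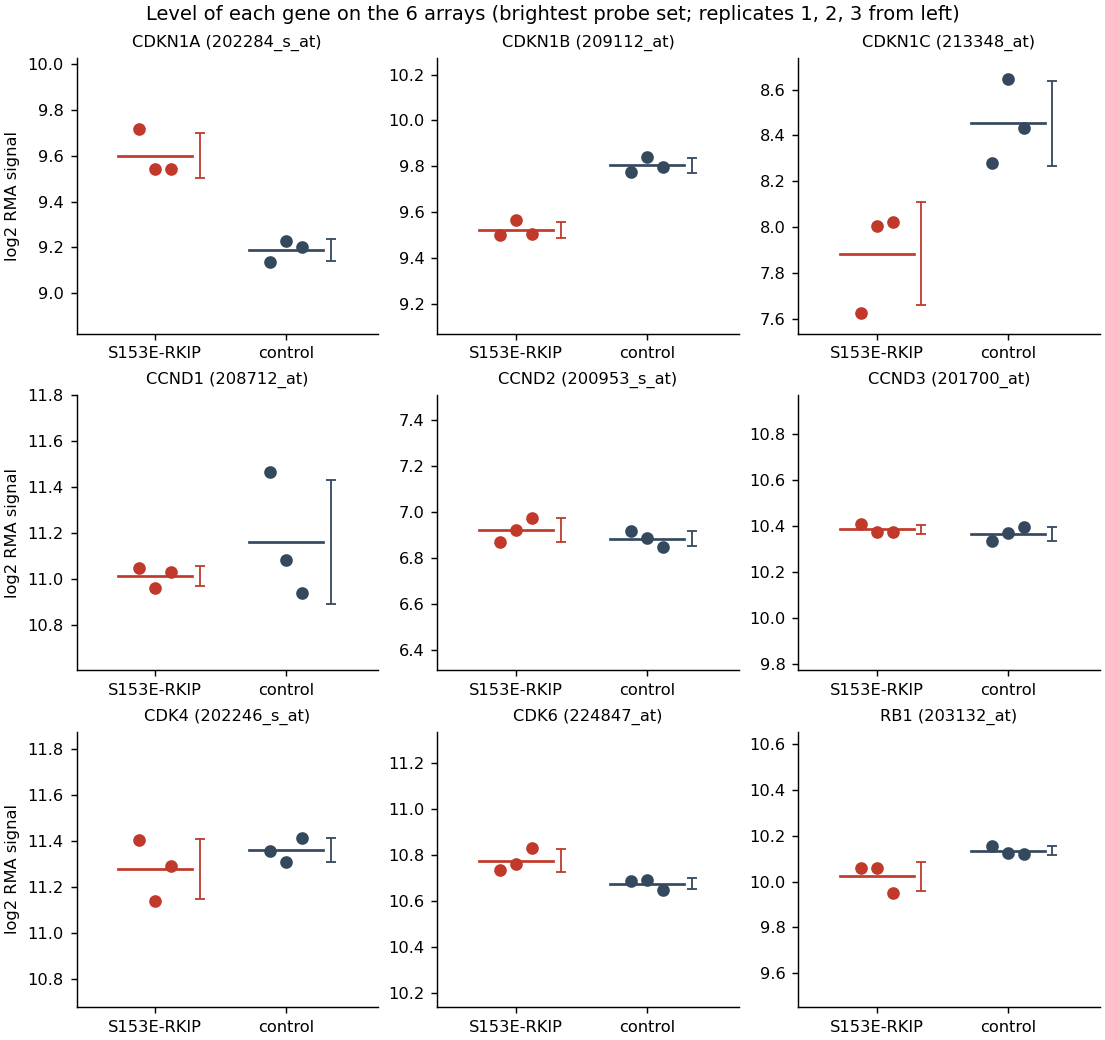
Levels of the 9 genes on the 6 arrays, with the log2 RMA signal of the brightest probe set on the vertical axis. Points are arrays, horizontal lines group means and bars 1 SD (n = 3 each), and every panel spans the same range of log2 units. CDKN1A is higher on all 3 S153E-RKIP arrays, CDKN1B and CDKN1C are lower on all 3, and the CCND1, CCND2, CCND3 and CDK4 points of the groups overlap.

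CDKN1A encodes p21, which arrests the cycle after DNA damage and which ERK signalling and other routes can induce. Its signal was 9.72, 9.54 and 9.54 on S153E-RKIP arrays 1, 2 and 3, against 9.13, 9.23 and 9.20 on control arrays 1, 2 and 3. The groups did not overlap, and replicate 1 was the highest of the S153E-RKIP arrays and of all 6. The group means were 9.60 ± 0.10 for S153E-RKIP and 9.19 ± 0.049 for control (SD, n = 3 each). CDKN1A rose 1.33-fold, a log2 fold change of 0.41 (SE 0.068, 95% confidence interval 0.26 to 0.57, limma adjusted p = 0.0223). Only 1 probe set on the array is annotated to CDKN1A, so no other probe set bears on the value. Fitted among all 54613 probe sets it was also called (adjusted p = 0.0349). The rise remained called without S153E-RKIP replicate 1 (0.35, adjusted p = 0.0422). Leaving out any other array ended the call while the difference stayed between 0.38 and 0.44, with an adjusted p of 0.0684 without S153E-RKIP replicate 2, 0.0575 without S153E-RKIP replicate 3, 0.129 without control replicate 1, 0.0828 without control replicate 2 and 0.105 without control replicate 3.

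CDKN1B encodes p27, which holds resting cells out of the cycle and is controlled largely by protein breakdown. Its signal was 9.50, 9.56 and 9.50 on the S153E-RKIP arrays, against 9.77, 9.84 and 9.80 on the control arrays. The gap between the groups was wider than the spread within either of them. The means were 9.52 ± 0.036 for S153E-RKIP and 9.80 ± 0.034 for control (SD, n = 3 each). CDKN1B fell 1.21-fold, a log2 fold change of -0.28 (SE 0.055, 95% confidence interval -0.41 to -0.15, limma adjusted p = 0.0453). It too has a single probe set, which was not called among all probe sets (adjusted p = 0.0783). After quantile normalization of the arrays again, the difference was -0.23 and was not called (limma adjusted p = 0.126). The call lay close to the threshold and was lost whichever of the 6 arrays was left out. The differences then ran from -0.30 to -0.26 and the adjusted p-values from 0.0897 without S153E-RKIP replicate 1 to 0.191 without control replicate 2, with 0.0936 and 0.0996 without S153E-RKIP replicates 2 and 3 and 0.149 and 0.169 without control replicates 1 and 3.

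Within each array the CDKN1A signal minus the CDKN1B signal follows 1 inhibitor transcript against the other. Only the shift of this quantity between the groups is free of how brightly each probe set binds. It shifted by 0.69 on the log2 scale toward CDKN1A on the arrays labelled S153E-RKIP, where its SD was 0.12 on those arrays and 0.024 on the control arrays (n = 3 each). This shift follows from the separate values above and was not tested again.

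CDKN1C encodes p57, an imprinted inhibitor known from embryonic growth and from Beckwith-Wiedemann syndrome. On its brightest probe set, 213348_at, the signal was 7.63, 8.01 and 8.02 on the S153E-RKIP arrays, against 8.28, 8.65 and 8.43 on the control arrays. The groups did not overlap, and S153E-RKIP replicate 1 was the lowest array of the 6. Means were 7.89 ± 0.22 for S153E-RKIP and 8.45 ± 0.18 for control (SD, n = 3 each), the widest spread of the inhibitors. The log2 fold change was -0.57 (SE 0.13, 95% confidence interval -0.86 to -0.28) with a limma adjusted p of 0.0741, which misses the threshold. Without S153E-RKIP replicate 1 the difference was -0.44 and without control replicate 1 it was -0.65.

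The 4 other probe sets of CDKN1C were read one by one. Probe set 213182_x_at gave 6.81, 6.86 and 6.90 on the S153E-RKIP arrays, against 7.27, 7.47 and 7.58 on the control arrays, and fell by 0.58 on the log2 scale (SE 0.085, limma adjusted p = 0.0157 over all probe sets). It was the 1 CDKN1C probe set called. Probe sets 216894_x_at and 219534_x_at had differences of -0.36 (adjusted p = 0.0922) and -0.49 (adjusted p = 0.221), and their groups did not overlap either. The fifth, 219533_at, was dim, with a mean of 4.70, and differed by 0.089 (SE 0.086, adjusted p = 0.685). In all, 4 of 5 probe sets were below 0 with groups that did not overlap, against 9.06% of all probe sets. They read 1 transcript pool and are not independent. The ending _x_at, which 3 of the 5 carry, marks probes that can pair with several transcripts. With the mean of all 5 probe sets in place of the brightest, CDKN1C had a difference of -0.38 and was called (adjusted p = 0.0302). The call of 213182_x_at was kept without control replicate 1 (adjusted p = 0.0199). It was lost without S153E-RKIP replicate 1, 2 or 3 (adjusted p = 0.0733, 0.102 and 0.0678) and without control replicate 2 or 3 (adjusted p = 0.101 and 0.0823).

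**Figure D2:**
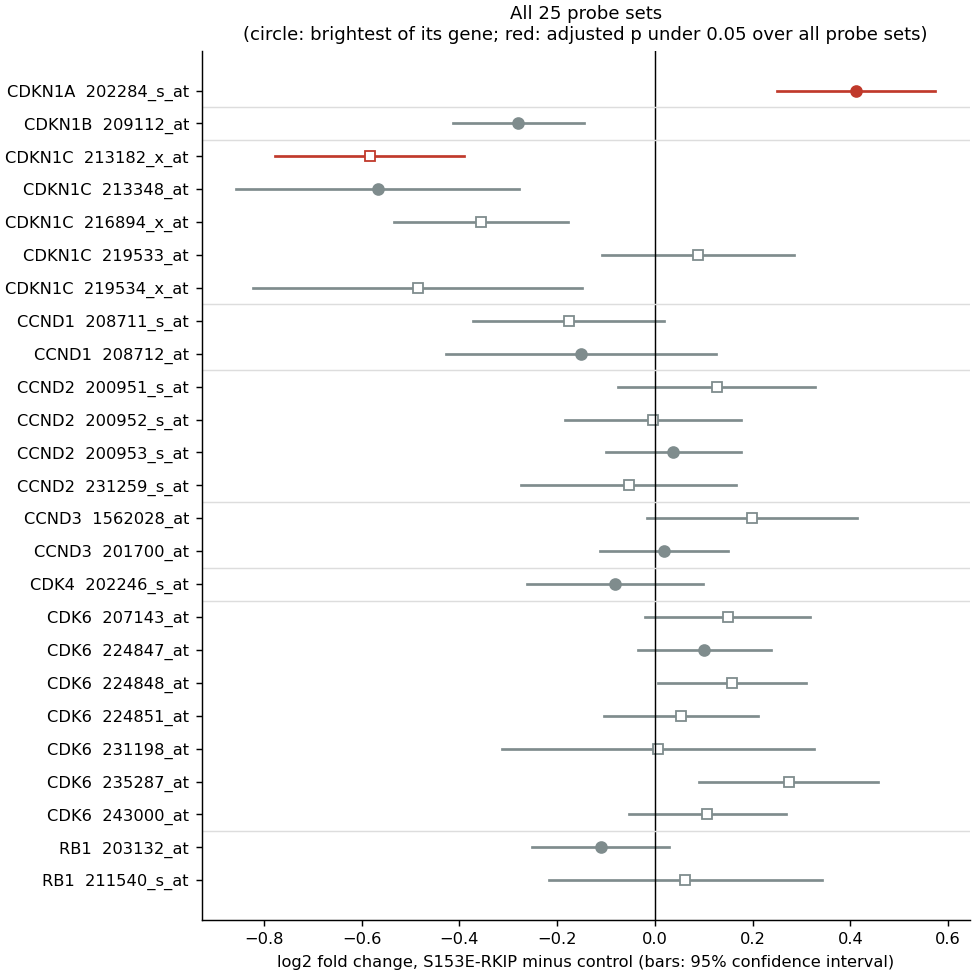
Log2 fold change (S153E-RKIP minus control) of all 25 probe sets with 95% confidence intervals, grouped by gene. The single CDKN1A probe set and 1 CDKN1C probe set are in red (called), 4 of 5 CDKN1C probe sets lie below 0, and all 7 CDK6 probe sets lie above 0.

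Over the 25 probe sets of the 9 genes, 2 were called, 1 higher and 1 lower, against 1.05% of all probe sets (0.366% higher and 0.685% lower). An unadjusted p under 0.05 was found for 8 of 25, against 13.2% of all probe sets. In 12 of 25 the groups did not overlap, against 17.1% of all probe sets, with 6 higher (8.09% of all probe sets) and 6 lower (9.06%). Probe sets of 1 gene read the same transcript pool, so these counts are not independent observations.

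**Figure D3:**
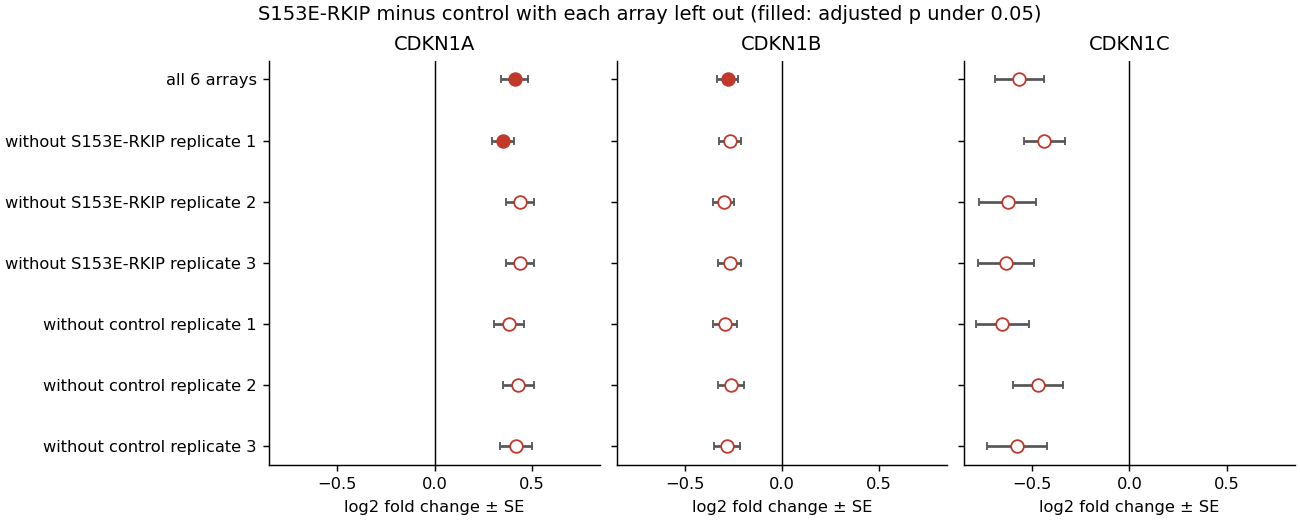
Log2 fold change (S153E-RKIP minus control, ± SE) of the 3 Cip/Kip genes with all 6 arrays and with each array left out in turn, and filled points have an adjusted p under 0.05. CDKN1A keeps its side of 0 at 0.35 to 0.44, CDKN1B at -0.30 to -0.26 and CDKN1C at -0.65 to -0.44, while most calls are lost with 5 arrays.

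CCND1 encodes cyclin D1, the D cyclin best known as an output of ERK signalling and as an amplified gene in breast cancer. Its signal was 11.04, 10.96 and 11.03 on the S153E-RKIP arrays, against 11.46, 11.08 and 10.94 on the control arrays. Control replicate 1 stood above the other 5 arrays, and control replicate 3 was the lowest of the 6. The log2 fold change was -0.15 (SE 0.12), with a 95% confidence interval of -0.43 to 0.13 and a limma adjusted p of 0.571. Without control replicate 1 it was 3.2e-04 (adjusted p = 1.00). The dimmer probe set, 208711_s_at, read 9.93, 9.79 and 9.61 on the S153E-RKIP arrays and 9.93, 9.93 and 10.01 on the control arrays. Its difference was -0.18 (SE 0.086, adjusted p = 0.416), and S153E-RKIP replicate 1 lay within the control range. The interval on the brighter probe set does not exclude a fall of 0.43 or a rise of 0.13.

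CCND3 encodes cyclin D3, and its bright probe set 201700_at had the smallest standard error of the D cyclin genes. It gave 10.41, 10.38 and 10.37 on the S153E-RKIP arrays and 10.34, 10.37 and 10.40 on the control arrays. The groups overlapped, and the log2 fold change was 0.019 (SE 0.053), with a 95% confidence interval of -0.10 to 0.14 and a limma adjusted p of 0.892. With equal array medians it was -0.0014. The other CCND3 probe set, 1562028_at, was dim (mean 4.84). It differed by 0.20 (SE 0.094, adjusted p = 0.408) with groups that did not overlap.

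CCND2 encodes cyclin D2, which many epithelial tumours silence by promoter methylation. All 4 of its probe sets carry the ending _s_at, and their means ran from 4.23 to 6.90, where the median of all genes was 6.64 and signal over background was not measured. The brightest gave 6.87, 6.92 and 6.97 on the S153E-RKIP arrays and 6.92, 6.89 and 6.85 on the control arrays. Its log2 fold change was 0.038 (SE 0.057), with a 95% confidence interval of -0.092 to 0.17 and a limma adjusted p of 0.781. The 4 differences ran from -0.054 to 0.13, 2 below and 2 above 0, and none had groups that did not overlap.

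CDK4 is the kinase partner of the D cyclins that breast cancer drugs target together with CDK6. Its 1 probe set gave 11.41, 11.14 and 11.29 on the S153E-RKIP arrays and 11.36, 11.31 and 11.41 on the control arrays. S153E-RKIP replicate 2 was the lowest array, and the groups overlapped. The log2 fold change was -0.082 (SE 0.076), with a 95% confidence interval of -0.26 to 0.093 and a limma adjusted p of 0.631.

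CDK6, the other kinase, has 7 probe sets and all 7 differences were above 0, between 0.0065 and 0.27. None was called. The brightest, 224847_at, gave 10.74, 10.76 and 10.83 on the S153E-RKIP arrays, against 10.69, 10.69 and 10.65 on the control arrays. The groups did not overlap there, but the difference was small, at 0.10 (SE 0.055), with a 95% confidence interval of -0.026 to 0.23 and a limma adjusted p of 0.419. The largest difference was on 235287_at, with 7.14, 6.92 and 7.11 on the S153E-RKIP arrays and 6.80, 6.69 and 6.86 on the control arrays (0.27, SE 0.081, adjusted p = 0.208 over all probe sets). Of the 7 probe sets, 4 had groups that did not overlap, all higher, against 17.1% of all probe sets (8.09% higher). For 2 of the 7 the unadjusted p was under 0.05, against 13.2% of all probe sets. The 7 read the same transcript pool, so they are not independent observations of CDK6. The smallest difference was on 231198_at, where control replicate 3 (6.60) was the highest array of the 6.

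RB1, the substrate on which the D cyclin kinases act, has 2 probe sets with differences of opposite sign. The brighter one, 203132_at, gave 10.06, 10.06 and 9.95 on the S153E-RKIP arrays and 10.16, 10.13 and 10.12 on the control arrays. The groups did not overlap, and the log2 fold change was -0.11 (SE 0.057), with a 95% confidence interval of -0.24 to 0.020 and a limma adjusted p of 0.388. The other, 211540_s_at, differed by 0.062 (SE 0.12, adjusted p = 0.857), and control replicate 1 was its lowest array at 7.67.

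Genes that act around the members were then read from lists. The 7 lists of the cell cycle and its regulators described here held no called gene, where 1.9% of all genes were called. At that share lists of this size can hold none, so their counts of called genes are given as a description. Among other CDK inhibitors, none of 3 was called. CDKN2D, the INK4 gene for p19, gave 7.72, 7.46 and 7.61 on the S153E-RKIP arrays, against 7.78, 7.78 and 8.01 on the control arrays (-0.26, SE 0.090, limma adjusted p = 0.222). Its other probe set went the other way (0.22, adjusted p = 0.276 with no probe sets ending in _x_at or _s_at). CDKN2A and CDKN2B had means of 6.14 and 4.85, below the median of all genes, and differences of 0.052 and -0.024.

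None of the 8 cyclin E and CDK2 genes was called, and 0 had an unadjusted p under 0.05, against 15.7% of all genes. Their median difference was -0.022, beside 0.010 for all genes. CDK7, the kinase that activates CDKs, had the smallest p of the list with a difference of -0.15 (SE 0.066, limma adjusted p = 0.321). CCNE1 and CCNE2, the cyclins that follow the D cyclins in G1, differed by 0.039 and 0.038.

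No pocket protein or E2F factor was called among 12 (median -0.0089), and the unadjusted p was under 0.05 for 3, against 15.7% of all genes. TFDP2, a dimer partner of E2F, gave 8.37, 8.30 and 8.60 on the S153E-RKIP arrays, against 8.82, 8.71 and 8.87 on the control arrays. The groups did not overlap, and the difference was -0.37 (SE 0.088, limma adjusted p = 0.0875). TFDP2 was past the threshold in 4 of its 17 alternatives. With no probe sets ending in _x_at or _s_at its difference was -0.15 (adjusted p = 0.328). No E2F target gene was called among 13 measured, and 9 were above 0 and 4 below (median 0.038). The unadjusted p was under 0.05 for 1 of the 13, against 15.7% of all genes. TK1, thymidine kinase, had the smallest p there (-0.22, SE 0.081, adjusted p = 0.247).

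The ubiquitin ligase genes that mark p27, p21 and the D cyclins for breakdown gave none of 14 called and a median of -0.024. Of the 14, 0 had an unadjusted p under 0.05, against 15.7% of all genes. FBXO4, an F-box gene reported to target cyclin D1, had the smallest p (-0.14, SE 0.067, limma adjusted p = 0.355). SKP2, the F-box gene for p27, differed by 0.10 (SE 0.081). No transcription factor acting on the members was called among 22 (median 0.0064). Their differences ran from -0.22 to 0.25, with 11 above 0 and 11 below. The unadjusted p was under 0.05 for 7 of them, against 15.7% of all genes. KLF4, an activator of CDKN1A, had the smallest p of these, with a difference of -0.20 (SE 0.056, adjusted p = 0.145). MYC, a repressor of CDKN1A, differed by 0.017 (SE 0.060). The part of the listed factors in the CDKN1A values was not tested.

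No proliferation marker was called among 12, and 2 were above 0 and 10 below (median -0.047). The unadjusted p was under 0.05 for 1 of the 12, against 15.7% of all genes. TOP2A, topoisomerase II alpha, differed by -0.13 (SE 0.052, adjusted p = 0.286), and MKI67, the gene for Ki-67, by -0.15 (SE 0.089).

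**Figure D4:**
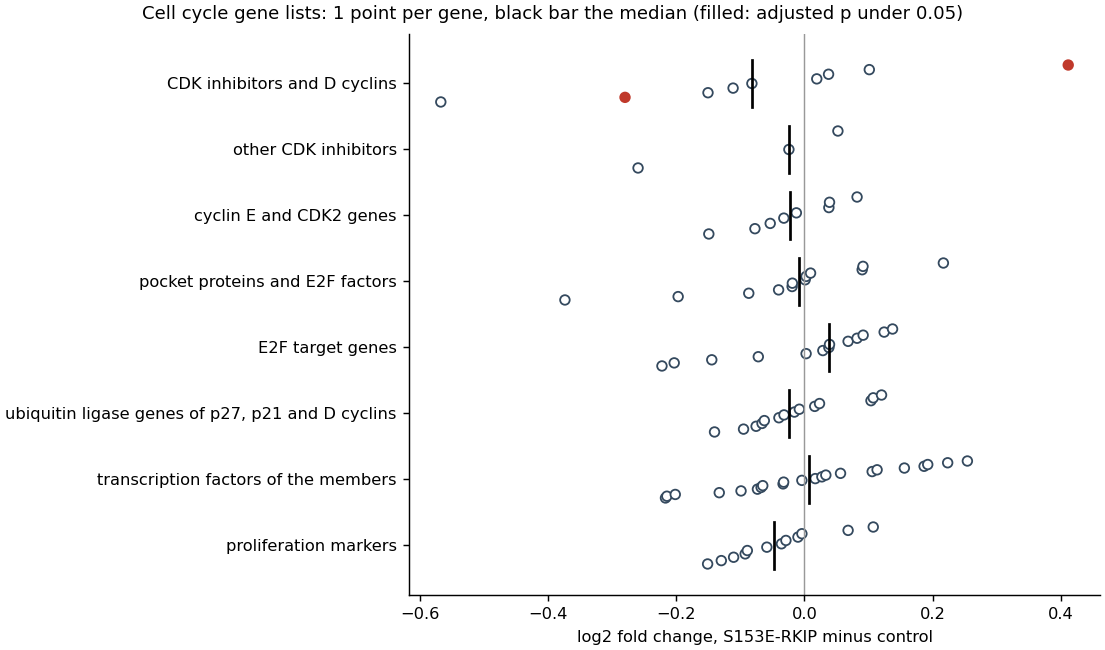
Log2 fold change (S153E-RKIP minus control) of each gene in the member list and in 7 cell cycle lists, with black bars at list medians. CDKN1A at 0.41 and CDKN1B at -0.28 are the filled points (called), CDKN1C is the lowest point of the top row at -0.57, and the list medians lie between -0.082 and 0.038.

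The cell type was checked with marker lists. Their place against the median of all genes is only a rough guide, because probe sets differ in how brightly they bind. The 6 markers of mesenchymal breast cancer lines had means from 11.37 to 14.44, all above the median of all genes, and none was called. CAV1, caveolin 1, had the smallest p (-0.26, SE 0.056, limma adjusted p = 0.0685). The 10 luminal markers had means from 4.04 to 13.02, with 7 of the 10 above the median of all genes (6.64). ESR1 was just above it at 6.65, while PGR, FOXA1 and CDH1 were below it at 4.04, 4.35 and 4.18. Of the 10 markers, 1 was called. KRT19, a keratin of luminal cells, fell by 0.48 on its brighter probe set (SE 0.056, adjusted p = 0.00437), and averaged over its probe sets it differed by -0.18 (adjusted p = 0.246). All 9 measured blood cell markers lay below the median of all genes, from 3.93 to 6.56. None was called, although all 9 differences were above 0 (median 0.12). Their mean level ran from 5.33 to 5.42 on the S153E-RKIP arrays and from 5.23 to 5.25 on the control arrays. CD3E had the smallest p (0.29, SE 0.079, adjusted p = 0.139). Of 10 stromal and endothelial markers, with means from 3.57 to 9.63 and 3 above the median of all genes, none was called (median 0.052). Their mean level ran from 5.93 to 6.06 on the S153E-RKIP arrays and from 5.91 to 5.96 on the control arrays, and COL1A1 had the smallest p (0.21, SE 0.070, adjusted p = 0.215). The part of these markers in the values of the CDK inhibitors was not tested.

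The genes whose pattern over the 6 arrays was closest to that of each called member were found by the Euclidean distance between mean-centred levels. For CDKN1A they were POU2F2, an octamer-binding factor (distance 0.12, difference 0.46), POPDC3, a Popeye domain gene (0.13, difference 0.41), and GALNT14, which starts O-glycans (0.13, difference 0.45). For CDKN1B they were MOSPD2 (distance 0.052, difference -0.25), RP2, a gene of retinitis pigmentosa (0.066, difference -0.25), and ACLY, the ATP citrate lyase of lipid synthesis (0.068, difference -0.31). ACLY gave 11.58, 11.60 and 11.58 on the S153E-RKIP arrays, against 11.89, 11.94 and 11.86 on the control arrays. With 6 arrays in 2 groups such closeness largely restates the group difference, and it is given as a description.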

How the data were processed

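The authors deposited log2 signals, a value for every probe set on every array. Per the submitters' processing notes they come from RMA, of which the sources used here give no version. Per the labels' protocols, biotin-labelled target came from 1 µg of total RNA, and the transduced cells grew under puromycin at 0.5 µg/ml. The table holds 54675 probe sets, of which 62 control probe sets were left out. In the platform annotation 41091 of the others have 1 gene symbol, 1801 several and 11721 none. A reference table matched 41037 of those with 1 symbol by gene identifier and changed 0 symbols. Each gene was its own probe set with the highest mean, with no filter on dim genes.

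Groups were taken from sample titles. The test was limma 3.58.1 in R 4.3.3 (lmFit, eBayes without trend, two-sided) with Benjamini-Hochberg adjustment over 19775 genes, and again over 54613 probe sets. Members and lists were chosen with earlier results of these data known. Of 143 distinct list genes, 133 had a probe set of their own, and the results of 1 list are not reported here, though its genes count in these totals. Named are all members, PEBP1, HMGA2, up to 4 called genes of a list (otherwise the one with the smallest p), and the 3 genes most alike each called member among those above the median level. CDKN2A, CDKN2B, CCNE1, CCNE2, SKP2, MYC and MKI67 were added after their values were seen.

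On simulated data for S153E-RKIP against control over 19775 genes, 36 of 50 genes changed 1.3-fold were recovered, and all 50 at each larger change (1.5, 2 and 4 times). Of 19575 unchanged genes, 15 were called. The simulated noise was normal and independent between arrays, without effects shared by the genes of an array. No change as small as the 1.21-fold of CDKN1B was simulated. Figures were drawn with matplotlib 3.10.9.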

Additional observations from a re-analysis of the deposited data

How the results depend on the processing

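No member called in the full comparison changed direction under any of the alternatives run, but the calls depended on them. The number of members called was 2 with all arrays and 0 at an adjusted p under 0.01. It was 0 with no probe sets ending in _x_at or _s_at, which leaves CDKN1A, CCND2 and CDK4 unmeasured. The 1 member called after quantile normalization again, or with the intensity trend removed by loess (an alternative chosen after seeing the data), was CDKN1A. CDKN1B then had differences of -0.23 (limma adjusted p = 0.126) and -0.24 (0.0899). With the replicate block the 1 member called was CDKN1C. The number was 3, CDKN1C added, with the mean of probe sets, either filter on dim genes, equal array medians or trend and robust estimation. With 1 array left out it was 0 to 1. CDKN1A was past the threshold in 10 of its 16 alternatives, where the threshold of 0.01 is counted at 0.05. CDKN1B was past it in 7 of 17 and CDKN1C in 6 of 17. The number of member probe sets called, also 2, was 4 with equal array medians or with trend and robust estimation and 0 at the threshold of 0.01, and 0 to 1 with 1 array left out. Genes called in all, 376, were 237 with no _x_at or _s_at probe sets (fewer genes tested), 600 with trend and robust estimation, 147 at the threshold of 0.01, and 124 to 303 with 1 array left out. Of the list genes 1 was called, against 2 with the mean of probe sets, 5 with only genes above the median of all genes, 3 with only genes above 6 on at least 3 arrays, 2 with equal medians, 5 with trend and robust estimation, 2 with the replicate block, and 1 to 2 with 1 array left out. The sign turned for CCND1 without control replicate 1 (3.2e-04, where the values with 1 array left out began at -0.26), for CCND3 with equal medians (-0.0014) and for CDKN2D with no _x_at or _s_at probe sets (0.22). The cause was not tested.

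Same-numbered replicates correlated at 0.13, 0.26 and -0.044 in their deviations from group means, so the numbers were not taken as pairs. Replicate 2 of the S153E-RKIP group correlated best with its own number, and replicate 3 did not. Replicate 1 correlated about equally with control replicates 1 (0.134) and 3 (0.133). With the replicate block the adjusted p was 0.0538 for CDKN1A, 0.0824 for CDKN1B and 0.0155 for CDKN1C, and 332 genes were called in all. Dim probe sets could not be set against background, since no detection calls were used here.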
